A study of Mus musculus with 12 samples.

Results

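The genes described here encode the receptors, adaptor, initiator caspases, scaffold and inhibitor that start and gate apoptosis: the death receptor genes Fas, Tnfrsf10b and Tnfrsf1a, the adaptor gene Fadd, the initiator caspase genes Casp8, Casp2 and Casp9, the scaffold gene Apaf1 and the caspase inhibitor gene Xiap. They were taken by symbol, and all 9 were found, as 1 row each, among the 15478 genes of the authors' deposited table. The RNA came from undifferentiated neural precursor cells (NPCs), in primary culture from adult C57BL/6 females aged 5 to 12 weeks, with no transgene or mutation named in the labels. One group of 4 samples received 100 µM hydrogen peroxide for 1 h, another group of 4 received it for 8 h, and 4 sham samples received phosphate-buffered saline. Each of 4 animals gave 1 sample to every group. The authors' deposited tables hold no values of single samples, so each gene is given by its mean level over all samples and by its log2 fold change in each of 3 comparisons.

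The depth of each library is unknown, and the tables are named as having outlier samples removed, so the number of samples behind a test is at most 4 per group. Both peroxide comparisons share the same control samples, and no label gives the time at which the control cells were collected, so time in culture and peroxide cannot be told apart. All 11 progenitor markers checked, among them Sox2, Nes and Vim, had a row, with mean levels from 1.55 to 11.97 log2 CPM (counts scaled to library size) in the authors' deposited table. Of the 5 lymphocyte markers, 0 had a row. For microglia 2 of 7 markers did, at -0.76 and 0.37 log2 CPM in the authors' deposited table, and for endothelial cells 2 of 5, at -1.23 and 0.02 log2 CPM. Ependymal markers were present as 3 of 4, between -0.51 and 5.00 log2 CPM in the authors' deposited table, the highest being Foxj1, which rose by 0.78 at 8 h. At 1 h, 2 progenitor markers rose and 4 fell, 1 of the microglial, 1 of the endothelial and 2 of the ependymal markers rose and none of these fell. At 8 h, 4 progenitor markers rose and 6 fell, none of the microglial or endothelial markers was called, and 1 ependymal marker rose. Over all genes, 42.7% were called at 1 h and 55.7% at 8 h. Log2 fold changes of the progenitor markers ran from -0.54 to 0.44 at 1 h and from -2.38 to 0.54 at 8 h. The part of these marker changes in the results below was not tested.

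Death receptors are members of the tumour necrosis factor receptor family with an intracellular death domain. When ligand binds, Fas and the TRAIL receptor encoded by Tnfrsf10b recruit FADD, which brings procaspase-8 molecules together so that they activate one another. The TNF receptor encoded by Tnfrsf1a first signals survival and inflammation through another adaptor and engages FADD and caspase-8 in a later complex. On the mitochondrial route, cytochrome c in the cytosol binds APAF1, whose wheel-shaped assembly, the apoptosome, activates caspase-9. Caspase-2 is activated on the PIDDosome, a platform built by PIDD1 and CRADD. Initiator caspases then cleave the executioner caspases, and XIAP binds and blocks caspase-9 and executioners. The activity of these proteins is set largely by assembly and cleavage, which RNA levels do not show.

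On a per-length scale, the mean log2 CPM less the log2 of exon length in kb, Tnfrsf1a was the most abundant of the 9 at 5.99 and Casp2 the least at 1.87. Between them stood Tnfrsf10b at 4.04, Apaf1 at 3.26, Xiap at 3.22, Fas at 2.98, Casp8 at 2.92, Casp9 at 2.32 and Fadd at 2.27. Only 4.54% of all genes were above Tnfrsf1a on that scale, against 57.3% above Casp2. The deposited means carry no spread over samples, so whether neighbours in this order, such as Apaf1 and Xiap, differ cannot be told. Without division by length, all 9 had a mean of at least 4.02 log2 CPM in the authors' deposited table, the lowest being Fas.

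The genes lie on 8 chromosomes of GRCm38. Fas is on chromosome 19 from 34290666 to 34327772, Tnfrsf10b on chromosome 14 from 69767472 to 69784411 and Tnfrsf1a on chromosome 6 from 125349362 to 125362484, all on the plus strand. Fadd is on the minus strand of chromosome 7 from 144577318 to 144582463. Casp8 is on chromosome 1 from 58795374 to 58847503, Casp2 on chromosome 6 from 42264985 to 42282508 and Casp9 on chromosome 4 from 141793612 to 141815976, all on the plus strand. Apaf1 is on the minus strand of chromosome 10 from 90989311 to 91082770, and Xiap on the plus strand of chromosome X from 42059679 to 42109656. Exons of Fadd share 239 bases with the antisense gene Faddos, and exons of Casp9 share 94 bases with each of Cela2a and Ctrc on the other strand. None of these 3 has a row in the table, and no header or label states whether counting used strand.

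RefSeq promoter windows on GRCm38.p6, from 250 bases before to 50 after the transcript start, were matched for 8 of the 9 genes, all but Tnfrsf10b. Those of 4 genes are shown because they belong to genes with different responses: Fas and Apaf1, which were higher at 8 h, Casp2, which was lower, and Casp9, which did not pass the test. Each is given 5′ to 3′ on the gene's strand, upstream of the start and outside annotated exons, with the motifs searched in capitals: the GC box (GGGCGG or its complement CCGCCC), the AP-1 site (TGACTCA or its complement TGAGTCA) and the CCAAT box (CCAAT or its complement ATTGG).
Fas, chr19:34290409-34290658, plus strand: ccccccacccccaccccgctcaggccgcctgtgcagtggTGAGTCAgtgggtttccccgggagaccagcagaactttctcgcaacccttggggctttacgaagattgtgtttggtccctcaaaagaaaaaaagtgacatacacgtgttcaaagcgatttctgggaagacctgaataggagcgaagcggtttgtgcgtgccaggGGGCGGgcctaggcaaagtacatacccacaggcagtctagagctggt
Apaf1, chr10:91082771-91082939, minus strand: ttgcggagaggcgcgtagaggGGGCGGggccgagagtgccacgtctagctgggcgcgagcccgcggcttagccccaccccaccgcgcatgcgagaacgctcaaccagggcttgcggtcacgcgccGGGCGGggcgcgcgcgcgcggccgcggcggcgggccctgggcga
Casp2, chr6:42264735-42264984, plus strand: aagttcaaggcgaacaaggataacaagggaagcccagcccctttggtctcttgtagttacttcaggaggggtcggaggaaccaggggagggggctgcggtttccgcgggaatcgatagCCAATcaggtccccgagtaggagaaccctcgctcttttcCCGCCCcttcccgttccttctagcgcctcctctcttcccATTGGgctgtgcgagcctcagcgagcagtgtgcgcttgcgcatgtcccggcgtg
Casp9, chr4:141793362-141793611, plus strand: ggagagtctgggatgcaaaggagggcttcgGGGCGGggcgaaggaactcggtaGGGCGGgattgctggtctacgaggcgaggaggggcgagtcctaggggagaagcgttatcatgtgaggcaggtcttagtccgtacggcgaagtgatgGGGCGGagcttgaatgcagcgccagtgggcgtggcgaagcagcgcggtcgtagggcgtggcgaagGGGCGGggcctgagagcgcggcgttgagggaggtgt

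The Apaf1 stretch is the whole 169-base gap between the exons of Apaf1 and of Ikbip, a gene that runs the other way, and 78.7% of its bases are G or C. In the full windows the GC box was found for 6 of the 8 matched genes, Apaf1, Casp2, Casp9, Fadd, Fas and Xiap, and in 35.7% of all 32851 windows. The AP-1 site was found only in the Fas window among these, and in 5.2% of all windows. CCAAT boxes were found for Casp2 and Casp8, and in 37.4% of all windows. The p53 half-site consensus, searched on both strands, was found in 0 of the 10 windows of these genes and in 8.36% of all windows. With 10 windows, 0 is near that share. Tnfrsf10b had no window, and sequence outside the windows, introns included, was not searched, so absence of p53 sites from these genes cannot be read from this. The GC box thus stood in windows of genes that rose at 8 h (Fas, Apaf1), of one that fell (Casp2) and of genes that did not pass (Casp9, Fadd, Xiap). A match is a run of letters, not a shown binding site.

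**Figure D1:**
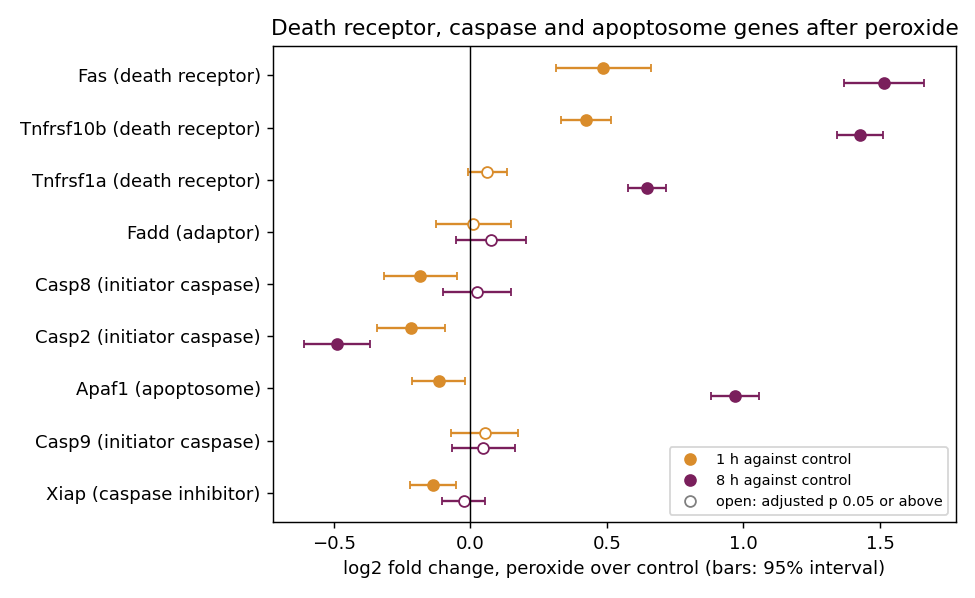
Log2 fold change of each gene at 1 h (orange) and 8 h (purple) of peroxide over control from the authors' deposited table, grouped by role, with 95% intervals from the implied standard error; filled points passed an adjusted p of 0.05. At 8 h Fas, Tnfrsf10b, Apaf1 and Tnfrsf1a stand between 0.65 and 1.52, Casp2 stands at -0.49, and the other 4 intervals cross 0.

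After 1 h of peroxide, 2 of the 9 genes were called higher than in control cells and 4 lower, and 3 did not pass the test. Over all genes of the table, 42.7% were called at 1 h, 20.5% as higher and 22.2% as lower. Their median absolute log2 fold change was 0.14, beside 0.16 over all genes. After 8 h, 4 rose, 1 fell and 4 did not pass, where 55.7% of all genes were called, 27.4% as higher and 28.2% as lower, so 5 of 9 is near the share of genes in general. The median absolute log2 fold change of the 9 was 0.49 at 8 h, beside 0.21 over all genes. Between the peroxide groups, 8 h over 1 h, 6 rose and 1 fell, where 62.7% of all genes were called, 30.3% as higher and 32.4% as lower. With a limit of 1.5-fold added, 0 of the 9 were called at 1 h, while 7.13% of all genes rose and 1.26% fell by that much. The count was also 0 at an unadjusted p below 0.05 in edgeR's test and at an adjusted p below 0.05 in limma's. No threshold on p could change it, as the largest 1 h change of the 9, 1.40-fold for Fas, was under that limit. At 8 h, Fas, Tnfrsf10b, Apaf1 and Tnfrsf1a passed that limit upward, as 6.27% of all genes did, and 0 of the 9 passed downward, where 11.5% did. The same 4 genes passed it for 8 h over 1 h, where 5.7% of all genes rose and 15.8% fell by that much, with Tnfrsf1a at the limit itself. In bulk RNA, fewer cells of a type and less RNA per cell cannot be told apart.

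Both receptor genes whose proteins bind FADD directly rose at both times. Fas rose by 0.49 ± 0.09 on the log2 scale at 1 h, a 1.40-fold change (adjusted p 3.0e-07), and by 1.52 ± 0.08 at 8 h, a 2.86-fold change (adjusted p 8.9e-89), in the authors' deposited table. Here and below, the value after ± is an implied standard error, obtained by dividing the size of a log2 fold change by the root of its likelihood ratio statistic. Tnfrsf10b, whose product is the only TRAIL death receptor of the mouse, rose by 0.42 ± 0.05 at 1 h, 1.34-fold (adjusted p 5.4e-18), and by 1.43 ± 0.04 at 8 h, 2.69-fold (adjusted p 1.2e-234), in the authors' deposited table. At 8 h only 163 genes of the table had a higher log2 fold change than Fas, and 181 than Tnfrsf10b. The 1 h change was 32.2% of the 8 h change on the log2 scale for Fas and 29.7% for Tnfrsf10b.

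As deposited, the TNF receptor gene Tnfrsf1a was called against control at 8 h only. Its log2 fold change at 1 h was 0.06 ± 0.04, with an interval from -0.01 to 0.14 (adjusted p 0.16), in the authors' deposited table. Less the median of genes of like mean expression, Tnfrsf1a was called at 1 h too, at 0.11 (adjusted p 0.0086). It was not called less the median of genes of like span (0.0032, adjusted p 0.96) or of all genes (0.05, adjusted p 0.27). At 8 h it rose by 0.65 ± 0.04, 1.57-fold (adjusted p 3.9e-73), in the authors' deposited table. Set directly against 1 h, the 8 h cells were higher in all 3 receptor genes: by 1.03 ± 0.07 for Fas (adjusted p 1.9e-44), by 1.00 ± 0.04 for Tnfrsf10b (adjusted p 1.5e-121) and by 0.59 ± 0.04 for Tnfrsf1a (adjusted p 4.5e-59) in the authors' deposited table. Each of these differences is many times its implied standard error. Of all genes, 1.05% had a higher log2 fold change at 8 h than Fas, 1.17% than Tnfrsf10b and 5.98% than Tnfrsf1a.

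Fadd and Casp8, whose proteins carry the receptor signal inward, showed small RNA changes or none that passed. Fadd, the adaptor, had 0.01 ± 0.07 at 1 h (adjusted p 0.91) and 0.08 ± 0.07 at 8 h (adjusted p 0.33) in the authors' deposited table. The 95% interval at 8 h ran from -0.05 to 0.20, which leaves outside it the 8 h change of each of the 3 receptor genes. Casp8, the initiator caspase that FADD recruits, fell by 0.18 ± 0.07 at 1 h, to 0.88 of control (adjusted p 0.020), in the authors' deposited table. At 8 h Casp8 had 0.03 ± 0.06, with an interval from -0.10 to 0.15 (adjusted p 0.76), in the authors' deposited table, and 8 h cells were above 1 h cells by 0.21 ± 0.07 (adjusted p 0.0030). Less the median of genes of like span, neither the 1 h fall of Casp8 (-0.11, adjusted p 0.23) nor its 8 h over 1 h difference (0.13, adjusted p 0.074) was called.

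Casp2 was the only one of the 9 called lower at both times. It fell by 0.22 ± 0.06 at 1 h (adjusted p 0.0023) and by 0.49 ± 0.06 at 8 h, to 0.71 of control (adjusted p 2.3e-14), in the authors' deposited table. The step between the peroxide groups was -0.27 ± 0.06 for 8 h over 1 h (adjusted p 7.2e-05) in the authors' deposited table. Caspase-2 is known for roles in the response to DNA damage and to extra centrosomes. The 2 other genes of its activating platform went different ways. Pidd1, a p53 target in mouse that encodes the platform's core, rose by 0.79 ± 0.06 at 1 h (adjusted p 6.2e-43) and by 1.18 ± 0.05 at 8 h (adjusted p 2.8e-106) in the authors' deposited table. Cradd, the adaptor that links PIDD1 to caspase-2, had -0.06 ± 0.17 at 1 h (adjusted p 0.81) and -0.04 ± 0.15 at 8 h (adjusted p 0.85) in the authors' deposited table.

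For the apoptosome, the scaffold gene rose at 8 h and its caspase gene was called at neither time. Apaf1 fell by 0.11 ± 0.05 at 1 h (adjusted p 0.046), and rose by 0.97 ± 0.05 at 8 h, 1.96-fold (adjusted p 1.9e-99), in the authors' deposited table. The small 1 h fall of Apaf1 was not called less the median of genes of like mean expression (-0.07, adjusted p 0.24), and turned to 0.06 (adjusted p 0.39) less the median of genes of like span. The 8 h cells exceeded the 1 h cells by 1.08 ± 0.05 for Apaf1 in the authors' deposited table, 2.12-fold, the largest step of the 9 (adjusted p 2.4e-119). Casp9, by contrast, had 0.05 ± 0.06 at 1 h (adjusted p 0.52) and 0.05 ± 0.06 at 8 h (adjusted p 0.51) in the authors' deposited table. Its interval at 8 h ran from -0.07 to 0.16, and its 8 h over 1 h value was -0.01 ± 0.06 (adjusted p 0.94) in the authors' deposited table. Cycs, which encodes the cytochrome c that triggers assembly, rose by 0.16 ± 0.05 at 1 h (adjusted p 0.0036) and by 0.15 ± 0.05 at 8 h (adjusted p 0.0038) in the authors' deposited table. Ikbip, whose start lies 170 bases from that of Apaf1 and is transcribed away from it, had 0.06 ± 0.05 at 1 h (adjusted p 0.39) and rose by 0.45 ± 0.05 at 8 h (adjusted p 1.7e-21) in the authors' deposited table.

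Xiap, the caspase inhibitor gene, fell by 0.14 ± 0.04 at 1 h, to 0.91 of control (adjusted p 0.0043), in the authors' deposited table. At 8 h it had -0.02 ± 0.04, with an interval from -0.10 to 0.06 (adjusted p 0.64), in the authors' deposited table. The 8 h cells were above the 1 h cells by 0.11 ± 0.04 (adjusted p 0.012) in the authors' deposited table. The 1 h fall of Xiap was not called less the median of genes of like span (-0.10, adjusted p 0.054) or of like mean expression (-0.07, adjusted p 0.18). The 8 h over 1 h call ended on both scales as well (0.05, adjusted p 0.25, and 0.02, adjusted p 0.76).

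**Figure D2:**
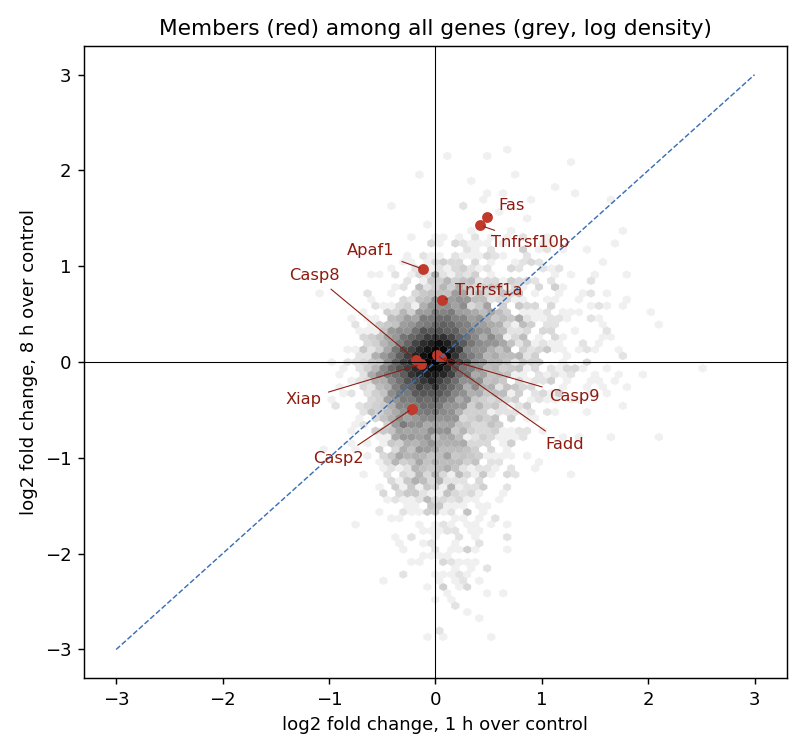
Each of the 9 genes (red) by its log2 fold change over control at 1 h (horizontal) and at 8 h (vertical) from the authors' deposited table, over a log-density map of all genes (grey; 41 genes beyond 3 on either axis are not drawn); the dashed line marks equal change. Fas and Tnfrsf10b lie together above the line at the upper right, Apaf1 and Tnfrsf1a lie above it near 0 at 1 h, and Casp8, Casp9, Fadd and Xiap lie in the dense centre.

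The 4 falls at 1 h were small. Long genes in general were lower at 1 h, and whether span had a part in any of the falls was not tested. Protein-coding genes of 4.81 kb or less had a median log2 fold change of 0.13 at 1 h, and those of 142 kb or more had -0.27. Apaf1 spans 93.5 kb, and the median of genes of like span was -0.17 at 1 h. Protein-coding genes were put in 10 equal groups by span, the median of a gene's own group was taken off, and on this scale Apaf1 stood at 0.06 (adjusted p 0.39), so that the direction of its 1 h change turned. Casp8, with 52.1 kb, came to -0.11 (adjusted p 0.23) and Xiap, a little shorter, to -0.10 (adjusted p 0.054), both short of the threshold. Casp2 spans 17.5 kb, where the median was 0.06, and its fall passed on this scale too, at -0.28 (adjusted p 9.8e-05). At 8 h the median of genes with a span like that of Apaf1 was -0.02, and no member's call at 8 h against control changed on this scale. On the span scale Tnfrsf1a stood at 0.0032 at 1 h (adjusted p 0.96). Less the median of genes of like mean expression it passed, at 0.11 (adjusted p 0.0086).

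**Figure D3:**
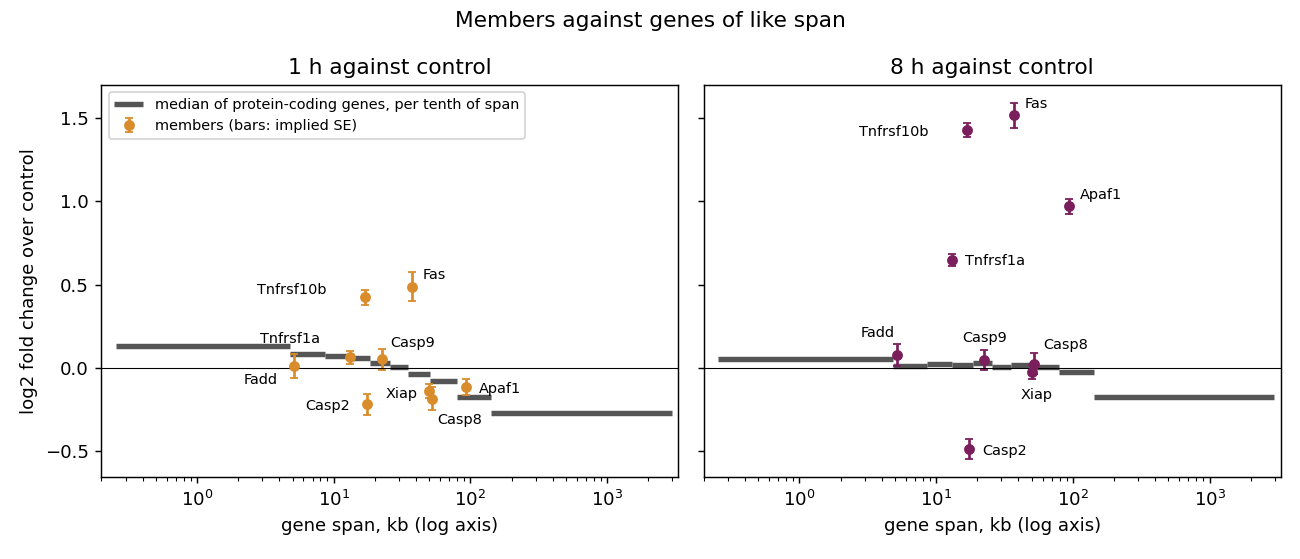
Log2 fold change over control of the 9 genes (points, with the implied standard error) against gene span in kb on a log axis, at 1 h (left) and 8 h (right); grey bars are medians of protein-coding genes in 10 equal groups by span. At 1 h the medians run down from 0.13 for the shortest group to -0.27 for the longest, with Xiap, Casp8 and Apaf1 near the bars and Fas, Tnfrsf10b and Casp2 away from them.

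Of 71 further genes listed for the pathway, 51 had a row in the table. At 1 h, 14 of them rose and 8 fell, with a median log2 fold change of 0.05 beside 0.01 over all genes. At 8 h, 23 rose and 11 fell, with a median of 0.11 beside 0.01 over all genes. For 8 h over 1 h, 16 rose and 12 fell, with a median of 0.05 beside -0.01. The 22 of 51 called at 1 h are near the 42.7% of all genes, the 34 of 51 at 8 h are above the 55.7%, and the 28 of 51 for 8 h over 1 h are below the 62.7%. With the limit of 1.5-fold, 9 of 51 were called at 8 h, where 6.27% of all genes rose and 11.5% fell by that much. The roles below hold few genes each, and their counts are read against 20.5% of all genes called higher and 22.2% lower at 1 h, and 27.4% higher and 28.2% lower at 8 h.

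Among ligands, 1 of the 7 listed had a row. Tnfsf12, which encodes the ligand TWEAK, had -0.25 ± 0.14 at 1 h (adjusted p 0.13) and rose by 0.57 ± 0.12 at 8 h (adjusted p 3.5e-06) in the authors' deposited table. The genes for the ligands of the receptors described above, Fasl, Tnfsf10, Tnf and Lta, were not analysed here. Of 9 other genes listed with the receptor family, 5 rose and 1 fell at 1 h. At 8 h, 5 rose and 4 were not called, a share called near the 55.7% of all genes. The 9 include Edaradd, which encodes an adaptor and not a receptor, and which was called at neither time. The lymphotoxin receptor gene Ltbr had 0.07 ± 0.04 at 1 h (adjusted p 0.19) and rose by 0.53 ± 0.04 at 8 h (adjusted p 1.2e-36) in the authors' deposited table. Tnfrsf12a, which encodes the TWEAK receptor, rose by 0.19 ± 0.04 at 1 h (adjusted p 1.8e-06) and by 0.21 ± 0.04 at 8 h (adjusted p 2.3e-08) in the authors' deposited table. For Tnfrsf23, a decoy receptor gene of the mouse, the authors' deposited table gives rises of 0.75 ± 0.16 at 1 h (adjusted p 1.5e-05) and 0.98 ± 0.15 at 8 h (adjusted p 3.2e-10), though reads may be shared with its close copies Tnfrsf22 and Tnfrsf26. Ngfr, the neurotrophin receptor with a death domain, rose by 1.48 ± 0.33 at 1 h (adjusted p 5.3e-05) and by 0.91 ± 0.34 at 8 h (adjusted p 0.014) in the authors' deposited table. Of the 6 receptor genes called at 1 h, 3 have a mean below 1 log2 CPM, Ngfr among them.

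Of 15 genes for adaptors and signalling complexes, 3 rose and 2 fell at 1 h, where 42.7% of all genes were called, and 5 rose and 3 fell at 8 h, near the 55.7% of all genes. Cflar, whose product FLIP competes with caspase-8 for FADD, rose by 0.14 ± 0.04 at 1 h (adjusted p 0.0059) and by 0.30 ± 0.04 at 8 h (adjusted p 2.4e-12) in the authors' deposited table. Cflar is also the nearest gene upstream of Casp8 on the same strand, 36.5 kb away, and the neighbours' log2 fold changes had opposite signs at 1 h. Casp8ap2, which encodes a caspase-8 binding protein, had 0.05 ± 0.05 at 1 h (adjusted p 0.42) and fell by 0.52 ± 0.05 at 8 h (adjusted p 4.5e-23) in the authors' deposited table. Rbck1, a subunit gene of the linear ubiquitin ligase at the TNF receptor, had -0.07 ± 0.04 at 1 h (adjusted p 0.17) and rose by 0.32 ± 0.04 at 8 h (adjusted p 7.5e-15) in the authors' deposited table. Traf3 fell by 0.37 ± 0.05 at 1 h (adjusted p 1.3e-14) and rose by 0.28 ± 0.04 at 8 h (adjusted p 8.0e-10) in the authors' deposited table.

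Casp6, which encodes an executioner caspase, had 0.06 ± 0.08 at 1 h (adjusted p 0.57) and rose by 0.75 ± 0.07 at 8 h (adjusted p 8.1e-26) in the authors' deposited table. Casp12, a caspase gene linked to the endoplasmic reticulum in rodents, had 0.34 ± 0.37 at 8 h (adjusted p 0.45) in the authors' deposited table, at a mean of -0.88 log2 CPM. Of the initiators described above, Casp2 fell at 8 h and Casp8 and Casp9 were not called, and the difference between Casp6 and the initiators was not tested.

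Of 6 genes for mitochondrial factors that reach the cytosol, 1 rose and 1 fell at 1 h, and 2 rose and 3 fell at 8 h, where 27.4% of all genes rose and 28.2% fell. Septin4, whose ARTS isoform binds XIAP, had -0.03 ± 0.13 at 1 h (adjusted p 0.88) and fell by 1.03 ± 0.13 at 8 h (adjusted p 1.5e-14) in the authors' deposited table, a value for the gene and not for that isoform. Aifm1, the gene of apoptosis-inducing factor, fell by 0.24 ± 0.05 at 1 h (adjusted p 3.9e-06) and by 0.23 ± 0.04 at 8 h (adjusted p 1.7e-06) in the authors' deposited table. Htra2, a mitochondrial protease gene whose product binds XIAP, had -0.10 ± 0.06 at 1 h (adjusted p 0.16) and fell by 0.27 ± 0.06 at 8 h (adjusted p 7.1e-06) in the authors' deposited table.

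Of the 4 other inhibitor of apoptosis genes with a row, 1 rose and 1 fell at each time, near the shares of all genes called (42.7% at 1 h and 55.7% at 8 h). Birc5, which encodes survivin, a protein of dividing cells, rose by 0.34 ± 0.07 at 1 h (adjusted p 7.6e-06) and fell by 2.42 ± 0.09 at 8 h (adjusted p 1.5e-159) in the authors' deposited table. Birc6, a large ubiquitin-conjugating inhibitor gene, fell by 0.55 ± 0.04 at 1 h (adjusted p 2.3e-44) and rose by 0.11 ± 0.04 at 8 h (adjusted p 0.0077) in the authors' deposited table. Birc2 had -0.06 ± 0.06 at 8 h (adjusted p 0.43) and Birc3 had 0.43 ± 0.28 (adjusted p 0.18) in the authors' deposited table. Xiap, described above, had the same outcome as these last genes at 8 h, no call.

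Downstream of the caspases, 2 of 8 genes rose and 3 fell at 1 h, and 3 rose and 4 fell at 8 h, where 27.4% of all genes rose and 28.2% fell. Parp1, a DNA repair gene whose product caspases cleave, fell by 0.15 ± 0.04 at 1 h (adjusted p 3.6e-04) and by 0.58 ± 0.04 at 8 h (adjusted p 5.2e-53) in the authors' deposited table. Dffb, the gene of the caspase-activated DNase, rose by 0.53 ± 0.09 at 1 h (adjusted p 1.4e-08) and by 0.52 ± 0.08 at 8 h (adjusted p 8.3e-10) in the authors' deposited table. Gas2 had 0.00 at 1 h (adjusted p 0.99) and fell by 0.46 ± 0.09 at 8 h (adjusted p 2.1e-06) in the authors' deposited table. Bid, which links caspase-8 to the mitochondria, rose by 0.26 ± 0.09 at 1 h (adjusted p 0.0069) and by 0.39 ± 0.08 at 8 h (adjusted p 4.2e-06) in the authors' deposited table. Rock1, a kinase gene whose product caspases cleave, fell by 0.30 ± 0.04 at 1 h (adjusted p 5.4e-13) and rose by 0.14 ± 0.04 at 8 h (adjusted p 5.7e-04) in the authors' deposited table. Of the necroptosis genes, Mlkl, whose product breaches the plasma membrane, rose by 0.58 ± 0.18 at 8 h (adjusted p 0.0023) in the authors' deposited table. Ripk3, its kinase, had 0.78 ± 0.35 (adjusted p 0.049) in the authors' deposited table, at a mean of -0.68 log2 CPM, and did not pass in the voom table (adjusted p 0.13).

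**Figure D4:**
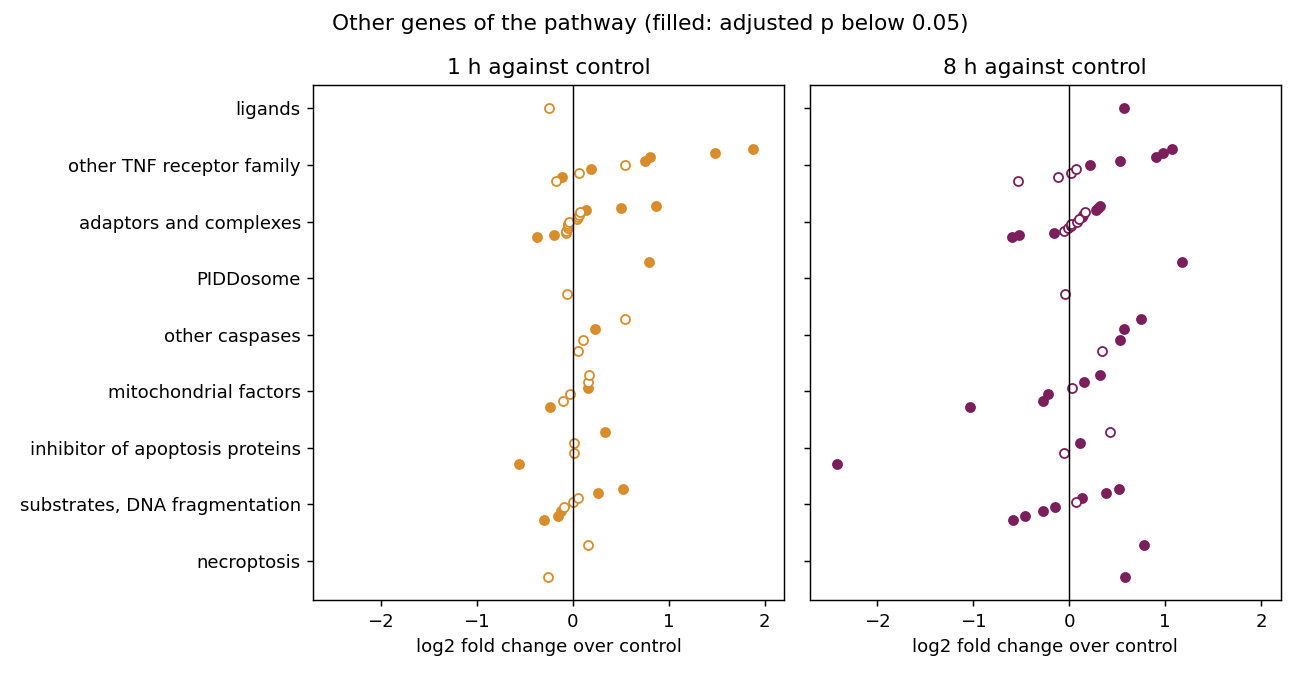
Log2 fold change over control of the 51 other pathway genes from the authors' deposited table, 1 point per gene in rows by role, at 1 h (left) and 8 h (right); filled points passed an adjusted p of 0.05. At 8 h Birc5 is the point farthest left, at -2.42, and Pidd1 the point farthest right, at 1.18.

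The authors also counted called genes in annotated sets, to be read against 20.5% of all genes higher and 22.2% lower at 1 h, and 27.4% higher and 28.2% lower at 8 h. In their deposited Gene Ontology counts, of 9 genes with death receptor activity 6 rose and none fell at 1 h, and 8 rose and none fell at 8 h. For the death-inducing signaling complex, the authors' deposited table counts 4 that rose and 1 that fell of 7 genes at 1 h, and 5 that rose of 7 at 8 h. For the apoptosome it counts 1 that rose and 1 that fell of 4 genes at 1 h, and 2 that rose and 1 that fell at 8 h. Of 72 genes of the extrinsic pathway through death domain receptors, the authors' deposited table counts 27 that rose and 18 that fell at 1 h. At 8 h it counts 30 of these that rose and 21 that fell. Of 270 genes of intrinsic apoptotic signaling it counts 91 that rose and 51 that fell at 1 h, and 115 that rose and 66 that fell at 8 h. Of 116 genes of the KEGG set Apoptosis it counts 33 that rose and 30 that fell at 1 h, and 58 that rose and 28 that fell at 8 h. These sets contain several of the genes described above and so are not independent of them.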

How the data were processed

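RNA was sequenced from poly-A libraries made with a stranded kit, per the labels' protocols. Gene counts came from featureCounts and were tested by the authors in edgeR, as a GLM with tagwise dispersion, per the file headers. The build is GRCm38, per the submitters' processing notes. Log2 fold changes and mean log2 CPM are values of the authors' deposited table, as are its p-value columns, raw and Benjamini-Hochberg adjusted. Its likelihood ratio is deposited as a test statistic, a score. A second deposited table, made with voom and limma, served as an alternative. Exon length, the authors' calls and the size of each gene set are further deposited columns. Columns holding values of single samples numbered 0, so the planned quasi-likelihood test of counts could not be run and the deposited GLM test was used, with calls at an adjusted p below 0.05 over all 15478 genes. A correction recomputed here differed from the deposited adjusted p by at most 1.3e-15, and 0 calls differed. Subtracting the 1 h from the 8 h log2 fold change gave the deposited 8 h over 1 h value, with a largest deviation of 1.0e-14. Intervals cover 95%, from the implied standard error and a normal distribution. Each animal gave a sample to every group, per the series' design text. No source used here gives the aligner, the strand setting, the upstream versions or whether the authors' fit used this pairing. The 9 members and all lists were chosen with earlier results of these data known. Of the 71 pathway genes, those named are up to 4 per role with the smallest adjusted p at 8 h and up to 2 at 1 h. Some genes that this rule names are not reported here. Nearest patterns and upstream neighbours followed fixed rules. Other genes named were chosen after their values were seen. Gene positions came from GENCODE M21, whose exon lengths equal the deposited ones for all 9 members. The calling step was tested on simulated data. Python 3.11.15, pandas 2.3.3 and scipy 1.17.1 were used.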

Additional observations from a re-analysis of the deposited data

Results flagged for a closer look

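Between the peroxide groups, 7 of the 9 genes differed, beside 62.7% of all genes. This is by the authors' test of 8 h over 1 h at an adjusted p below 0.05. The collection time of the controls is not given, so time in culture and peroxide cannot be told apart here. In the authors' deposited table the difference was 1.03 for Fas, 1.00 for Tnfrsf10b, 0.59 for Tnfrsf1a and 1.08 for Apaf1. Smaller differences were 0.21 for Casp8, 0.11 for Xiap and -0.27 for Casp2 in the authors' deposited table. Less the median of genes of like span, the calls of Casp8 (0.13, adjusted p 0.074) and Xiap (0.05, adjusted p 0.25) ended. That of Xiap also ended less the median of genes of like mean expression (0.02, adjusted p 0.76). For Apaf1 the called changes against control had opposite signs at the 2 times as deposited, but its 1 h value turned to 0.06 (adjusted p 0.39) less the median of genes of like span and was not called less that of like expression (-0.07, adjusted p 0.24). Samples that stand apart could not be looked for, because no values of single samples were at hand.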

How the results depend on the processing

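With the voom and limma table, every one of the 27 member values kept its direction and its side of the threshold. The size of the p-values differed between the tests. In limma's test the adjusted p at 8 h against control was 4.1e-18 for Tnfrsf10b and 4.7e-14 for Fas, beside 1.2e-234 and 8.9e-89 in edgeR's. Counts of called members were also 6 at 1 h, 5 at 8 h and 7 for 8 h over 1 h with the filter on expression. At an adjusted p below 0.01 they were 4 (2 higher, 2 lower), 5 and 6. With a fold limit of 1.5, members called were 0 at 1 h and 4 for 8 h over 1 h. The 1 h count was also 0 at an unadjusted p below 0.05 in edgeR's test and at an adjusted p below 0.05 in limma's. No member reached 1.5-fold at 1 h, so no threshold on p could change that count. Pathway genes called with the fold limit were 6, 9 and 12 at 1 h, at 8 h and for 8 h over 1 h. With Bonferroni correction, members called were 2 at 1 h and 4 for 8 h over 1 h, and pathway genes 10, 20 and 18. Less the median of all genes, which was 0.0125 at 1 h and -0.0143 for 8 h over 1 h, Fadd at 1 h came to -0.0011 and Casp9 for 8 h over 1 h to 0.0088, both uncalled. Less the median of genes of like span, a choice made after seeing the data, Fadd at 1 h came to -0.075 and Apaf1 at 1 h to 0.057. That scale also ended the calls of Casp8 and Xiap at 1 h and for 8 h over 1 h, where Casp8 came to 0.13 and Xiap to 0.05. Less the median of genes of like expression, the 1 h calls of Apaf1 (-0.07) and Xiap (-0.07) ended, as did that of Xiap for 8 h over 1 h (0.02). Tnfrsf1a at 1 h passed on that scale, at 0.11 (adjusted p 0.0086), and not on the span scale (0.0032, adjusted p 0.96). The cause was not tested. No paired analysis was possible because the tables hold no values of single samples, and for the same reason no sample could be left out and depth is unknown.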

Other observations

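Genes whose pattern was most like that of the strongest responders were sought among 11681 named genes with a mean of at least 1 log2 CPM, by the Euclidean distance over 2 values, the log2 fold changes against control at 1 h and 8 h. Nearest to Fas were the sialidase gene Neu3 (distance 0.0914), Tnfrsf10b (0.110) and the protein C receptor gene Procr (0.145). For Tnfrsf10b they were the syndecan gene Sdc1 (0.102), Fas (0.110) and Sh3yl1 (0.135). Sdc1 had 0.39 at 1 h and 1.33 at 8 h, beside 0.42 and 1.43 for Tnfrsf10b, in the authors' deposited table. For Apaf1 they were Adamtsl1 (0.0508), Hpcal1 (0.0525) and the calpastatin gene Cast (0.0694), the inhibitor of calpain proteases. Cast had -0.13 at 1 h (adjusted p 0.15) and 0.90 at 8 h (adjusted p 1.9e-45) in the authors' deposited table. Such a distance rests on values that share the control samples and describes likeness in these libraries only.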
